A study of Mus musculus with 2 samples.

Results

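The mitochondrial respiratory chain is the set of protein complexes of the inner mitochondrial membrane that pass electrons from NADH and succinate to oxygen and use the proton gradient this builds to make ATP. Its nuclear-encoded subunits were described here on 2 Affymetrix arrays of mouse colon. Members were chosen by platform gene symbol: the Ndufa, Ndufb, Ndufc, Ndufs and Ndufv genes of complex I (NADH dehydrogenase), Sdha to Sdhd of complex II (succinate dehydrogenase), the Uqcr genes and Cyc1 of complex III (cytochrome bc1), Cycs (cytochrome c), the Cox4i, Cox5, Cox6, Cox7 and Cox8a genes of complex IV (cytochrome c oxidase) and the Atp5 genes of complex V (ATP synthase). The symbols matched 191 probe sets of 45101. Of these, 181 named a single gene and gave 90 genes of 18193 on the array. The other 10 listed several symbols and were not assigned to a gene. The symbol rule also took in the Ndufaf genes, which encode assembly factors and not subunits of complex I, and these 8 genes were kept apart. Ndufa4 was counted with complex IV, since its product is now known as a subunit of that complex. Ndufa4l2 and Cox4i2 were set apart because both are known to be raised by hypoxia-inducible factors (HIF).

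Colon mucosal scrapings came from C57BL/6 mice, 6 to 8 weeks old by the sample labels and 7 weeks old by the design text, given dextran sulfate sodium (DSS) at 3% for 3 days, which is known to damage the lining of the colon. Hif-2αΔIE mice, in which the gene of HIF-2α (Epas1) is removed in the intestinal epithelium as this model is known, were compared with Hif-2αF/F mice, which carry the floxed gene only. The strain, the DSS and the floxed alleles were shared by both genotypes, and the sources used here do not name the Cre driver. The design text counts 5 Hif-2αΔIE and 6 Hif-2αF/F mice, whereas there is a single array of each genotype, and the sources used here do not say whether RNA was pooled. The genotypes therefore could not be tested against each other. Every difference below is Hif-2αΔIE minus Hif-2αF/F on the log2 scale (here ΔIE and F/F) and sets 1 array against 1 other. Levels are in log2 units from robust multi-array averaging (RMA), and each gene is given by its probe set of highest mean. Genes were kept if either array reached 6.11, which is the middle of the probe set means. This left 11899 genes, whose differences had a median of 0.02 and quartiles of -0.18 and 0.19.

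The labels were checked on the Cre transgene and on Epas1. The 4 control probe sets for Cre recombinase read 7.86 to 10.01 on the ΔIE array and 2.92 to 4.22 on the F/F array, whereas 14 probe sets for the bacterial bio genes differed by -0.10 to 0.38. Epas1 read 11.77 in ΔIE and 11.90 in F/F by its brighter probe set, and 7.15 in ΔIE and 6.98 in F/F by a dimmer one. Their positions relative to the deleted part were not determined here. In the scrapings as a whole, the colonocyte markers fixed for this work read a median of 12.67 in ΔIE and 12.49 in F/F over 10 genes, well above the filter on both arrays.

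The respiratory chain is built from subunits encoded in the nucleus and in mitochondrial DNA, and its nuclear genes are known to be driven together by factors such as NRF1, GABP and the PGC-1 coactivators. HIF is known to hold respiration back in low oxygen, by switching subunit isoforms and by blocking the entry of pyruvate into mitochondria. Colonocytes are known to rely on respiration, since they burn butyrate from the gut bacteria.

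Promoters are shown because nearly all members lay on the same side of 0 and shared promoter elements are what this gene group is known for. The 7 shown were selected, most of them at an end of the range of differences in their complex. Cycs is not at an end of the range of all members, and Cox8a, the highest of complex IV, is not shown. Each run is the 250 bases before the RefSeq start site on build GRCm38.p6, given 5′ to 3′ on the strand of the gene. Capitals mark matches on either strand to CATGCGC, the core that NRF1 binds, and to CCGGAAG, a core of ETS factors such as GABP.
Ndufs3, chr2:90904722-90904971, strand minus: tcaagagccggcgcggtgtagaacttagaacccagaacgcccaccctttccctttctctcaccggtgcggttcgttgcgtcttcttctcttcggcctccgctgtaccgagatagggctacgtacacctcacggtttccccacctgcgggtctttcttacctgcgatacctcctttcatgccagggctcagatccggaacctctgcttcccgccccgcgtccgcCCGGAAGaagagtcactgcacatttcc
Sdhb, chr4:140961021-140961270, strand plus: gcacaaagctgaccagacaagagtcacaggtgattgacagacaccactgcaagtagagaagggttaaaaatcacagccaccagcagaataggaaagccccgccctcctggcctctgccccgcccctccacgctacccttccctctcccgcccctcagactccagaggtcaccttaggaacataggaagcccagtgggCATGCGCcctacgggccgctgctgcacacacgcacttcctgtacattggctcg
Uqcr11, chr10:80406822-80407071, strand minus: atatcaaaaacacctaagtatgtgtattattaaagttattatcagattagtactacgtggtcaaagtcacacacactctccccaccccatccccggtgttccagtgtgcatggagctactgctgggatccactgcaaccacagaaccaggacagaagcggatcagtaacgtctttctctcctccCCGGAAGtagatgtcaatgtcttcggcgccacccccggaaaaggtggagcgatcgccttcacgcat
Cycs, chr6:50566570-50566819, strand minus: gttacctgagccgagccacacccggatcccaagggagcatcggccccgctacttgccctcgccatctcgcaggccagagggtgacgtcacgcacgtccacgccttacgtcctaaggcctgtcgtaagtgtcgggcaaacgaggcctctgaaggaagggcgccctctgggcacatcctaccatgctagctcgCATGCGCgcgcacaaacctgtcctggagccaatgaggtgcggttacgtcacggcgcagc
Atp5g1, chr11:96075632-96075881, strand minus: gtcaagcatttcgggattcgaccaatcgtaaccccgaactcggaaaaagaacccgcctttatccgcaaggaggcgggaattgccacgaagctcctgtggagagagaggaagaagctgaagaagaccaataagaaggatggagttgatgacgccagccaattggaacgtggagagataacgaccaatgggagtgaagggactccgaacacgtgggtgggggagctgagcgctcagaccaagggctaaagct
Ndufa4, chr6:11907451-11907700, strand minus: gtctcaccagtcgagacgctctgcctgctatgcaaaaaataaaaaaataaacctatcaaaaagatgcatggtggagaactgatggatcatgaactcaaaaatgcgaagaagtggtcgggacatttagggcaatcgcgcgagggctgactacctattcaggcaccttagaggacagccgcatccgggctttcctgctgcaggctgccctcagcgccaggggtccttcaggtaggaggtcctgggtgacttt
Cox7a2l, chr17:83514334-83514583, strand minus: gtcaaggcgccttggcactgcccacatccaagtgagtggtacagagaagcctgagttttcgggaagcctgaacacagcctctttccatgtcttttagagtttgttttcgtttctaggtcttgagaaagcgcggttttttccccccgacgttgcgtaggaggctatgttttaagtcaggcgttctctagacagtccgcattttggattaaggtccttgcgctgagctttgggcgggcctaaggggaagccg
Ndufs3, Sdhb, Uqcr11 and Atp5g1 had the highest difference of complexes I, II, III and V by the probe set of highest mean, Cycs is cytochrome c, and Ndufa4 and Cox7a2l had the 2 lowest differences of complex IV. Sdhb and Cycs each held 1 match to the NRF1 core, which begins 53 and 59 bases before the start site. Ndufs3 and Uqcr11 each held 1 match to the ETS core, which begins 27 and 66 bases before it. Atp5g1, Ndufa4 and Cox7a2l held neither. Of the 90 member genes, 74 had an entry in the promoter table.

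Over these 74 genes, 14.9% (11 genes) held CATGCGC in the 250 bases, against 3.68% of 27025 genes in the whole table. CCGGAAG was found in 14 members (18.9%), against 7.83% of all genes. The hypoxia response core, ACGTG or GCGTG, was found in 42 members (56.8%), against 41.5% of all genes, and so is common in promoter windows of this length. Holding a match did not go with a higher difference between genotypes. The 11 kept members with CATGCGC had a median difference of 0.19 and the 61 without it 0.22, and the medians were 0.20 over 14 members with CCGGAAG and 0.23 over 58 without it. For the hypoxia core they were 0.20 over 40 members with it and 0.26 over 32 without it. These matches are letters in a window and not measured binding.

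Nearly every respiratory chain gene read slightly higher on the ΔIE array. Apart from Ndufa4l2 and Cox4i2, 86 member genes were kept, and 85 of them were above 0 and 1 below, while 52.7% of all genes kept were above 0 and 46.5% below. At a filter set at the 75th percentile, 79 of 80 members were above 0, against 54.8% of all genes. With the filter passed on both arrays, which leaves out Cox6a2, 84 of 85 members were above 0, against 53.6% of all genes. The 86 members had a median difference of 0.22, a 1.16-fold higher level, with quartiles of 0.16 and 0.30 and a range of -0.02 to 0.70. The members differed from each other less than genes in general, with an SD across genes of 0.11, against 0.49 over all genes kept. Of all genes, 14.2% lay within the members' quartiles. Some other mitochondrial lists, described below, were narrow too, with an SD of 0.12 for import, chaperone and cristae genes. It was 0.14 for mitochondrial ribosomal proteins and 0.15 for other assembly factors. The remaining lists were wider, from 0.23 for carriers and channels to 0.54 for HIF-linked genes with Ndufa4l2. TCA cycle and pyruvate dehydrogenase genes had an SD of 0.26. In a mixed tissue, fewer cells of a type and less RNA per cell cannot be told apart. Without the 8 assembly factors, the 78 subunit and cytochrome c genes had a median of 0.21 and 77 of them were above 0.

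The size of these differences was small. At 1.5-fold, 1 member of 86 was higher, the assembly factor Ndufaf6, where 4.37% of all genes kept were higher. None of them was higher at 2-fold, where 1.15% of all genes were. Of these 86 none was lower at 1.5-fold, where 10.6% of all genes kept were lower; Ndufa4l2, set apart, was. At a log2 difference of 0.32, 15 of the 86 were higher (17.4%), which is near the 13.1% of all genes, and none was lower, where 17.3% of all genes were. The group, like several other mitochondrial lists, was thus marked by the shared sign and narrow range of its differences and not by large ones. With no second array per genotype, whether animals of 1 genotype vary by as much could not be seen.

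**Figure D1:**
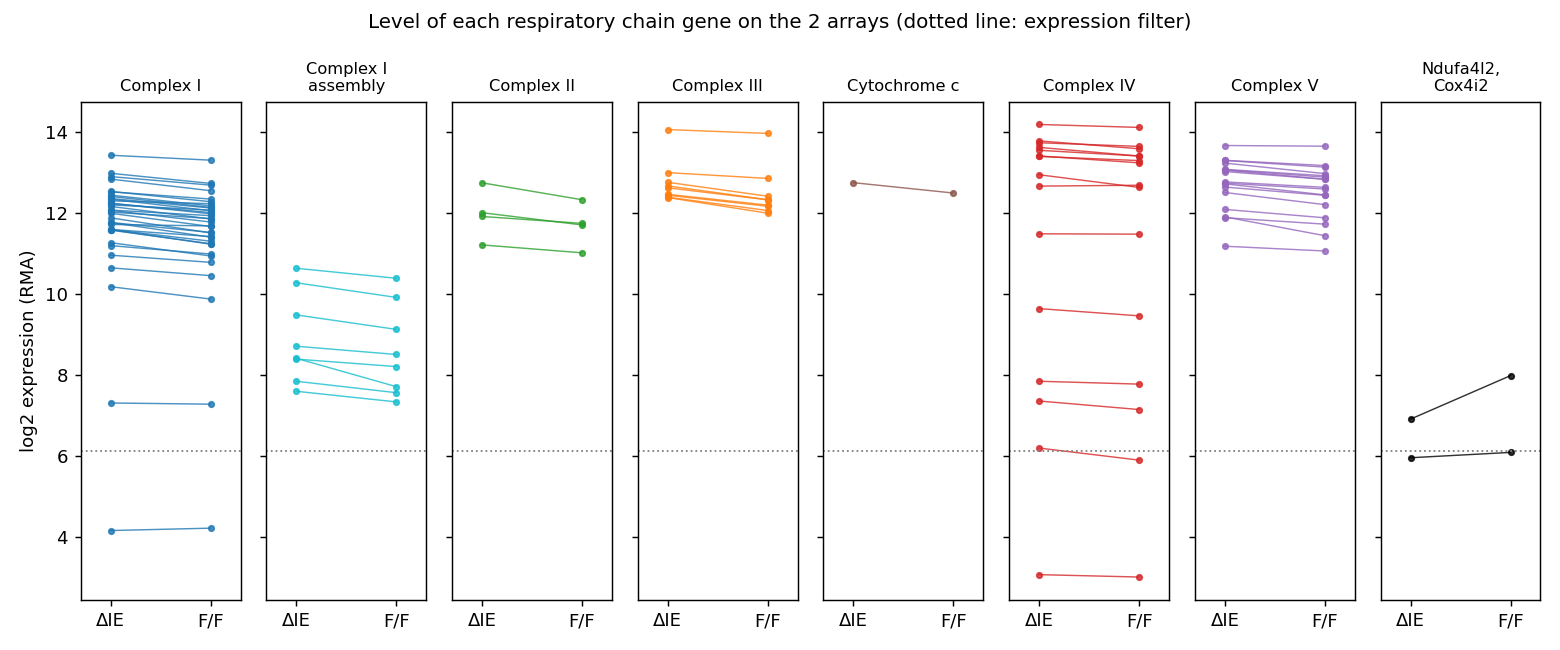
Log2 expression of every member gene on the ΔIE array (left of each panel) and the F/F array (right), joined by a line per gene, in a panel per complex; the dotted line is the expression filter at 6.11. Nearly all lines of complexes I to V slope slightly down towards F/F, and Ndufa4l2 slopes the other way.

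Complex I takes electrons from NADH, and all 33 of its subunit genes kept were above 0, with a median of 0.25 and a range of 0.03 to 0.37. The conserved core subunits analysed here, most of which bind the flavin or iron-sulfur clusters, had a median of 0.32 over 6 genes, and the 27 accessory subunits a median of 0.23. Ndufs3, a core subunit of the arm in the matrix, read 11.88 in ΔIE and 11.51 in F/F, a difference of 0.37. Ndufs1, the largest core subunit, which carries iron-sulfur clusters, read 11.59 in ΔIE and 11.23 in F/F. Ndufs7, which holds the last cluster before ubiquinone, read 11.76 in ΔIE and 11.40 in F/F. These 3 had the highest differences in the complex, with Ndufs3 first by the probe set of highest mean and Ndufs7 first, at 0.43, averaged over probe sets. Ndufv1, which binds NADH and the flavin, read 11.59 in ΔIE and 11.30 in F/F, and its 3 probe sets differed by 0.29 to 0.39. Ndufv2 read 12.44 in ΔIE and 12.18 in F/F. Ndufs8 read 12.36 in ΔIE and 12.12 in F/F, and all 6 of its probe sets were higher in ΔIE, by 0.18 to 0.34.

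Among the accessory subunits, the 12 Ndufa genes of complex I had a median of 0.24 and the 10 Ndufb genes, which sit in the membrane arm, a median of 0.21. Ndufb2 read 11.57 in ΔIE and 11.24 in F/F, and Ndufb10 read 11.26 in ΔIE and 10.94 in F/F. Ndufa9, which lies at the junction of the arms, read 11.99 in ΔIE and 11.67 in F/F. Ndufab1, the mitochondrial acyl carrier protein, which also serves fatty acid synthesis, read 12.16 in ΔIE and 11.85 in F/F, and its 4 probe sets above the filter differed by 0.24 to 0.39. At the other end, Ndufb1 read 7.30 in ΔIE and 7.27 in F/F, Ndufa2 11.72 in ΔIE and 11.68 in F/F, and Ndufb11 12.30 in ΔIE and 12.23 in F/F. By the probe set of highest mean, these 3 genes were level between the arrays to within 0.07. The other probe sets of Ndufb11, of like brightness, differed by 0.13 and 0.23. Ndufa1 read 13.43 in ΔIE and 13.30 in F/F. Ndufb4 was below the filter on both arrays by its only probe set with a single symbol, at 4.15 in ΔIE and 4.21 in F/F. The probe sets that list Ndufb4 together with Ndufb4b and Ndufb4c were bright. They read 11.41 and 11.86 in ΔIE, against 11.20 and 11.57 in F/F.

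The assembly factors of complex I, which help to join its modules and are not part of the finished enzyme, were all above 0, with a median of 0.27 over 8 genes. Ndufaf6 read 8.41 in ΔIE and 7.71 in F/F, which is 1.62-fold higher and the only difference of the group past 1.5-fold. It ranked 360th from the highest of 11899 genes and rests on 1 probe set. Ndufaf4 read 10.27 in ΔIE and 9.91 in F/F, with the same difference of 0.36 in both of its probe sets. Ndufaf3 read 9.48 in ΔIE and 9.12 in F/F. The other 5, Ndufaf1, Ndufaf2, Ndufaf5, Ndufaf7 and Ndufaf8, differed by 0.18 to 0.28.

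Complex II is the only complex that is also an enzyme of the TCA cycle, and all 4 of its genes were above 0, with a median of 0.25. Sdhb, the iron-sulfur subunit, read 12.74 in ΔIE and 12.33 in F/F, a difference of 0.42. Sdha, the flavoprotein that oxidises succinate, read 12.01 in ΔIE and 11.70 in F/F, and its 3 probe sets above the filter differed by 0.30 to 0.45. The membrane anchors differed less by the probe set of highest mean. Sdhc read 11.21 in ΔIE and 11.01 in F/F, and Sdhd read 11.91 in ΔIE and 11.74 in F/F. The dimmer probe set of Sdhd differed by 0.37. Averaged over all probe sets, also those below the filter, Sdhd differed by 0.27 and Sdha by 0.20.

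Complex III passes electrons from ubiquinol to cytochrome c, and its 9 genes were all above 0 with a median of 0.30, the highest median of the 5 complexes. Uqcr11 read 12.38 in ΔIE and 11.99 in F/F, the highest difference in the complex by the probe set of highest mean; averaged over probe sets, Uqcr10 was higher, at 0.42. The subunits that carry the redox centres encoded in the nucleus were close behind. Cyc1, which carries the haem of cytochrome c1, read 12.76 in ΔIE and 12.41 in F/F, and Uqcrfs1, the Rieske iron-sulfur protein, read 12.67 in ΔIE and 12.33 in F/F. Uqcr10 read 12.39 in ΔIE and 12.06 in F/F, and its 3 probe sets differed by 0.33 to 0.60. The core proteins Uqcrc1 and Uqcrc2 both differed by 0.27. Uqcrh, the hinge protein, differed by 0.14, and Uqcrb read 14.06 in ΔIE and 13.97 in F/F. The brighter probe set of Uqcrb thus differed by 0.09, and its dimmer one by 0.21. Cytochrome c itself, Cycs, read 12.75 in ΔIE and 12.49 in F/F, and its 3 probe sets above the filter differed by 0.26 to 0.37.

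Complex IV reduces oxygen, and its 14 kept genes had a median of 0.16, the lowest of the 5 complexes. Of these, 13 were above 0, among them Cox7a2l, which lay below 0 when averaged over its probe sets. Cox6a2, also among the 13, passed the filter on the ΔIE array alone. Cox8a read 12.94 in ΔIE and 12.63 in F/F, a difference of 0.31. Cox4i1, the widely expressed isoform of subunit IV, read 13.62 in ΔIE and 13.41 in F/F, and Cox5b, which binds zinc, read 13.78 in ΔIE and 13.59 in F/F. Cox5a read 13.74 in ΔIE and 13.64 in F/F, and Cox6c read 13.40 in ΔIE and 13.29 in F/F. The smallest differences were those of Ndufa4 and Cox7a2l. Ndufa4 read 12.66 in ΔIE and 12.68 in F/F and was the only one of the 86 members below 0. Cox7a2l, whose product links complexes III and IV into supercomplexes, read 11.48 on both arrays, and its 3 probe sets differed by -0.03 to 0.01. Cox7c, at 7.84 in ΔIE and 7.77 in F/F, differed by 0.07.

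Several subunits of complex IV exist as a widely expressed form and a form of heart and skeletal muscle or testis. Cox6a1, the widely expressed form, read 14.19 in ΔIE and 14.11 in F/F, and its dimmer probe set differed by 0.22. Its muscle form Cox6a2 read 6.19 in ΔIE and 5.89 in F/F. Cox6a2 thus passed the filter on the ΔIE array alone, which fixed its sign. Cox7a2 read 13.55 in ΔIE and 13.41 in F/F, and its dimmer probe set differed by 0.31. The muscle form of Cox7a2, Cox7a1, read 9.64 in ΔIE and 9.46 in F/F. The muscle forms differed by 0.30 and 0.18, inside the range of the other members. Skeletal muscle markers read higher in ΔIE on the same arrays. All 8 of the 10 listed that were kept were above 0, with a median of 1.33 and a median level of 8.23 in ΔIE and 6.67 in F/F, while Myh4 and Actn3 were below the filter. Tnnt3, Mb and Pvalb passed the filter on the ΔIE array alone, which fixed their sign. The part of the skeletal muscle markers in the result was not tested. Cox6b1 read 13.41 in ΔIE and 13.24 in F/F, and its testis form Cox6b2 read 7.35 in ΔIE and 7.14 in F/F. Cox7b2, another testis form, was below the filter at 3.06 in ΔIE and 3.00 in F/F.

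Complex V makes ATP, and all 17 of its genes were above 0 with a median of 0.18. The catalytic head, made of Atp5a1, Atp5b, Atp5c1, Atp5d and Atp5e, had differences of 0.13 to 0.22. Atp5b, the catalytic beta subunit, read 13.30 in ΔIE and 13.13 in F/F, and Atp5a1 read 13.30 in ΔIE and 13.17 in F/F. The peripheral stalk genes Atp5o, Atp5h, Atp5j and Atp5pb had a median of 0.23, and Atp5o, the link between stalk and head, read 12.51 in ΔIE and 12.21 in F/F. The 5 small membrane subunits had a median of 0.16, among them Atp5mpl at 12.72 in ΔIE and 12.45 in F/F. Subunit c, which forms the rotating ring, is encoded by 3 genes whose mature proteins are known to be identical, and these genes spread most. Atp5g1 read 11.90 in ΔIE and 11.44 in F/F, a 1.38-fold difference by its only probe set above the filter. Atp5g2 read 11.88 in ΔIE and 11.72 in F/F, and Atp5g3 read 13.67 in ΔIE and 13.65 in F/F.

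**Figure D2:**
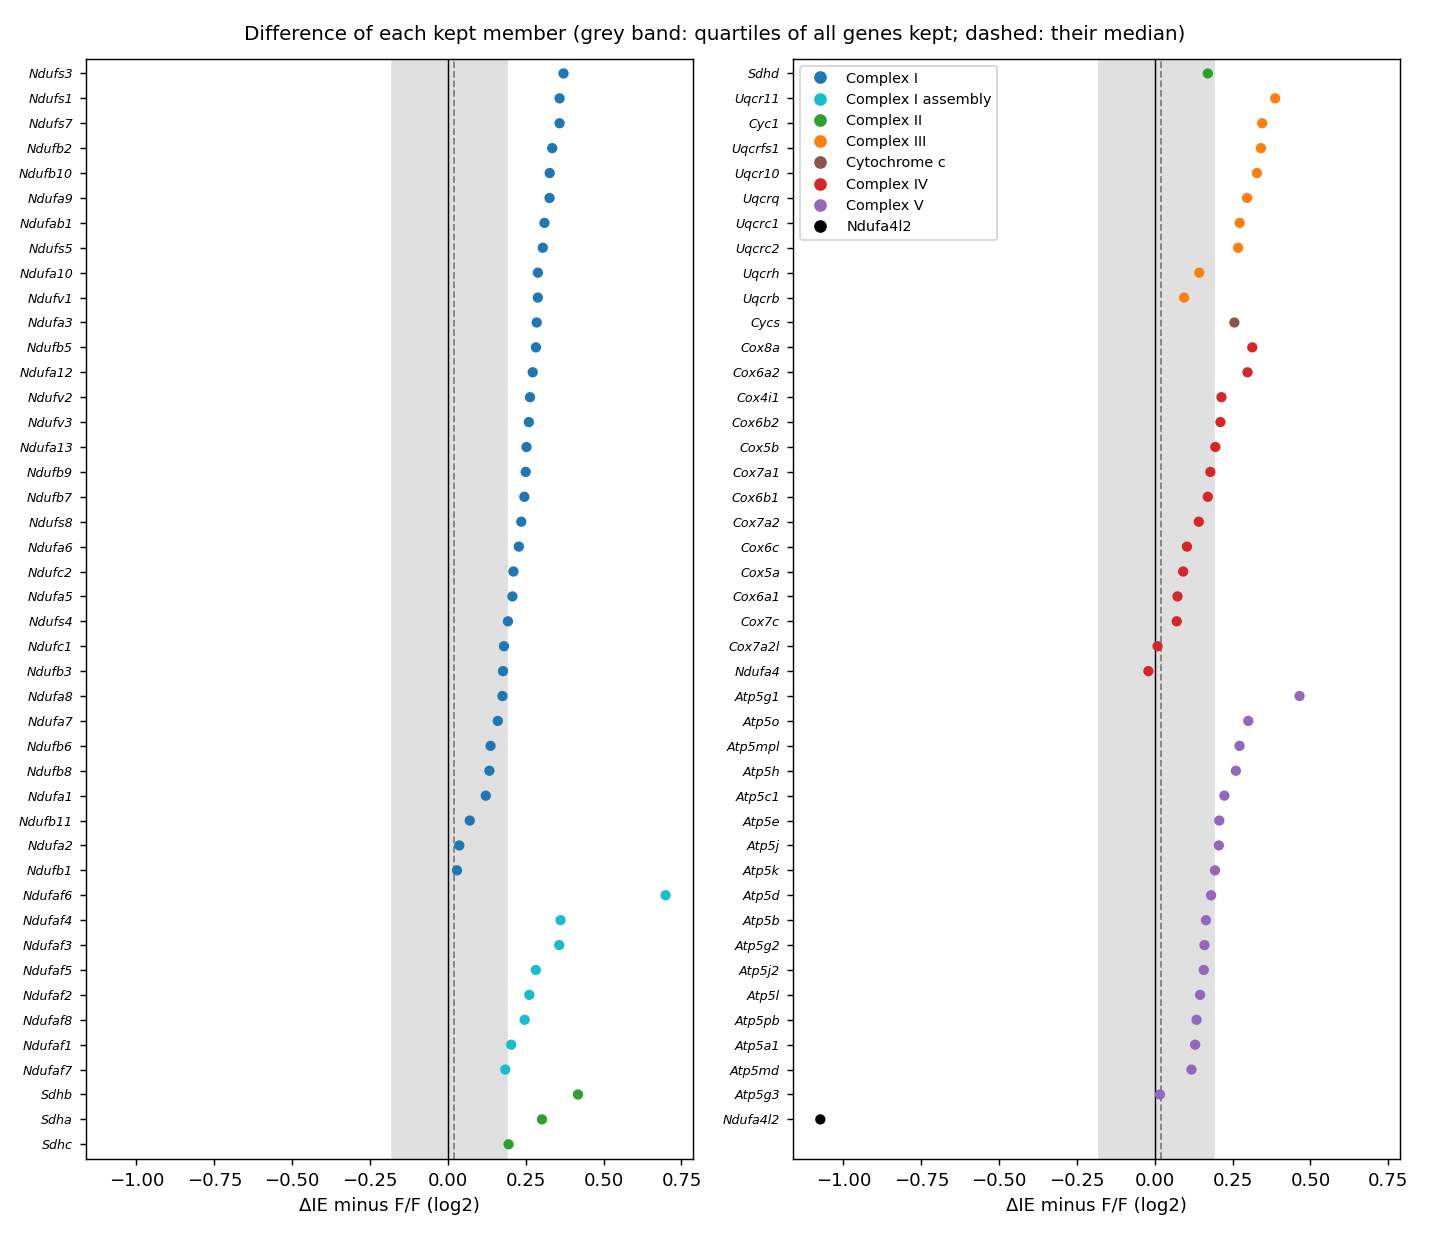
Difference in log2 expression, ΔIE minus F/F, of each kept member gene (points, coloured by complex and sorted within it), with the quartiles of all 11899 genes kept as a grey band and their median as a dashed line. Of 87 points, Ndufa4 and Ndufa4l2 lie below 0, and Ndufa4l2 at -1.07 stands alone.

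Of the HIF-linked paralogs, Ndufa4l2 lay below 0 and Cox4i2 did not pass the filter. Ndufa4l2, the paralog of Ndufa4 that HIF is known to raise and that is known to lower complex I activity in low oxygen, read 6.91 in ΔIE and 7.98 in F/F. The difference of -1.07 is a 2.11-fold lower level, ranked 558th from the lowest of 11899 genes. At 2-fold, 5.3% of all genes kept were lower, so a difference of this size was not rare on these arrays. It rests on 1 probe set. Its paralog Ndufa4 differed by -0.02. Cox4i2, the isoform of subunit IV that HIF-1 is known to induce, was below the filter on both arrays, at 5.95 in ΔIE and 6.08 in F/F, while Cox4i1 differed by 0.21. At this brightness, the Cox4i2 difference of -0.13 was not read as a change. Cox6a2, kept at a like brightness, is no more certain.

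Ndufa4l2 and Cox4i2 are also known from mouse tissues as transcripts of vascular mural cells (pericytes). Of 8 mural cell markers chosen after values had been seen, 7 were kept and 5 of these were below 0, with a median of -0.77 and a median level of 7.85 in ΔIE and 8.60 in F/F. Notch3, Pdgfrb, Abcc9, Kcnj8 and Mcam differed by -0.95 to -0.67, Rgs5 and Cspg4 by 0.21 and 0.25, and Higd1b was below the filter. All 8 endothelial markers, also chosen after values had been seen, were kept and below 0, with a median of -0.71. Among them Tie1 passed the filter on the F/F array alone, which fixed its sign. The part of the mural and endothelial markers in the Ndufa4l2 difference was not tested.

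Other genes listed as linked to HIF and to mitochondria lay on both sides of 0, with 5 of 8 kept above 0. The list was not limited to mitochondrial proteins or to genes that HIF raises, so no shared sign was expected. Bnip3, which directs mitochondria to autophagy, read 10.13 in ΔIE and 10.98 in F/F, a difference of -0.84. Pdk1, the kinase that shuts pyruvate dehydrogenase, read 9.18 in ΔIE and 9.48 in F/F. Fundc1, a receptor of mitochondrial autophagy, differed by -0.21. Against these, Fam162a read 13.12 in ΔIE and 12.69 in F/F, Mxi1 10.57 in ΔIE and 10.22 in F/F, and Higd1a, which binds complex IV, 12.68 in ΔIE and 12.39 in F/F. Averaged over their probe sets, Fam162a and Higd1a differed by 0.68 and 0.52. Hif1a, the gene of HIF-1α, read 11.41 in ΔIE and 12.38 in F/F.

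Probe sets of the same gene gave close values. In the 48 members that several kept probe sets measure, the top pair by level lay a median of 0.05 apart and at most 0.20 apart, while the median was 0.10 over 5110 genes of the whole array. Over all 162 member probe sets above the filter, 157 were above 0, with a median of 0.24. The exceptions came from 4 genes, and 3 of them, Ndufa12, Ndufb2 and Cox7a2l, had probe sets on both sides of 0. For Ndufa12, an accessory subunit of complex I, 3 probe sets differed by 0.25 to 0.27 and another, dimmer one read 6.85 in ΔIE and 7.53 in F/F, a difference of -0.68. The dimmest probe set of Ndufb2 differed by -0.07. The 6 probe sets above the filter that listed several symbols were all above 0, with a median of 0.28. Respiratory chain genes have many processed pseudogenes, and a probe set with the suffix _s_at or _x_at can match several transcripts.

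In each range of level the members' median stood above that of all genes. Members are bright on the RMA scale, with median levels of 12.32 in ΔIE and 12.06 in F/F. Between levels of 12 and 13, 36 members had a median of 0.25, and the 328 genes of that range had a median of 0.06 with 59.8% above 0. Between 11 and 12, 21 members had a median of 0.25 and 739 genes a median of 0.04. Above 13, 13 members had a median of 0.13 and 121 genes a median of -0.005, with 47.1% above 0. Below 10, 11 members had a median of 0.21 and 9226 genes a median of 0.01. After the trend with level was removed by a lowess curve, the members' median was 0.17 and 82 of 86 were above 0, with Atp5g3, Cox7a2l, Ndufa2 and Ndufa4 at or below 0. Across the 86 members the difference and the level had a Pearson r of -0.21 and a Spearman rho of -0.29, a description across genes of the same 2 arrays.

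**Figure D3:**
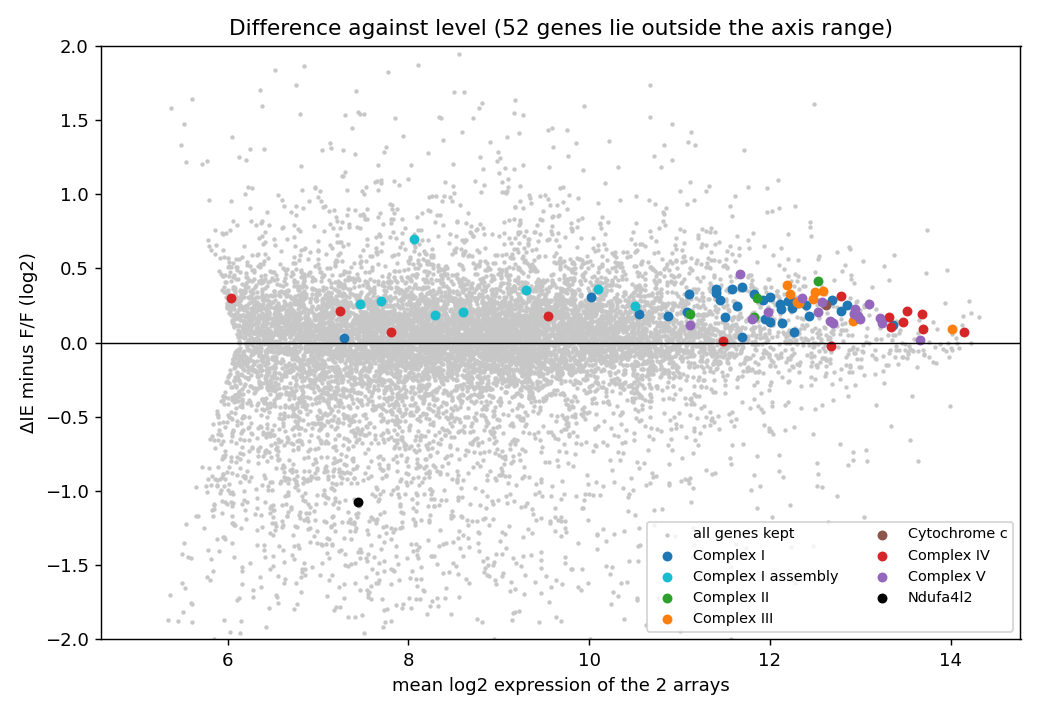
Difference (ΔIE minus F/F, log2) against mean log2 expression of the 2 arrays for all genes kept (grey) and the members (coloured by complex). Members form a narrow band just above 0 at mean levels mainly above 10, and Ndufa4l2 lies below at -1.07; genes outside the axis range are counted in the title.

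Genes that work around the respiratory chain mostly had the same sign. The TCA cycle and pyruvate dehydrogenase list had 17 of 18 genes above 0 and a median of 0.32. Idh2, Fh1 (fumarase) and Ogdh differed by 0.40, 0.39 and 0.39 (Idh2 by 0.23 averaged over its probe sets), while citrate synthase, Cs, read 12.24 in ΔIE and 12.17 in F/F. Pcx, the pyruvate carboxylase gene, which also serves fat synthesis, differed by -0.73. Genes that feed electrons to ubiquinone by other routes or make ubiquinone had 15 of 16 above 0 and a median of 0.33. Among them the electron transfer flavoprotein genes of fatty acid oxidation, Etfa, Etfb and Etfdh, differed by 0.37, 0.57 and 0.39. Prodh (proline dehydrogenase) read 7.94 in ΔIE and 7.11 in F/F, and Suox (sulfite oxidase) 8.26 in ΔIE and 7.59 in F/F. In this list 3 of 16 were higher at 1.5-fold, against 4.37% of all genes kept.

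Of 36 other assembly factors of the chain 35 were above 0, with a median of 0.23. Coa4, at 6.15 in ΔIE and 5.96 in F/F, passed the filter on the ΔIE array alone, which fixed its sign. Sco1, a copper chaperone of complex IV, read 8.98 in ΔIE and 8.29 in F/F, and Surf1, also for complex IV, read 10.95 in ΔIE and 10.46 in F/F. Cox17, another copper chaperone, differed by -0.06, with its other probe set above 0. Mitochondrial ribosomal proteins, which make the subunits encoded by mitochondrial DNA, had 72 of 74 genes above 0 and a median of 0.18, with Mrps31 highest at 9.64 in ΔIE and 8.92 in F/F and Mrps6 lowest at -0.31. Import, chaperone and cristae genes had 18 of 20 above 0 and a median of 0.19, led by Immt, the cristae junction gene, at 10.75 in ΔIE and 10.36 in F/F. Carriers and channels had 11 of 12 above 0 and a median of 0.18. In that list Slc25a10, the dicarboxylate carrier, read 11.34 in ΔIE and 10.71 in F/F, and Slc25a4, the ADP/ATP carrier form of heart and muscle, read 11.09 in ΔIE and 11.39 in F/F. Of the 13 genes of mitochondrial DNA only ND5 was matched by symbol, at 13.12 in ΔIE and 13.02 in F/F. Whether the others are on the array under other names was not determined.

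Regulators of mitochondrial biogenesis were less uniform, with 12 of 17 above 0 and a median of 0.08. The coactivator genes Ppargc1b and Ppargc1a read 10.74 and 9.96 in ΔIE, against 10.16 and 9.56 in F/F, differences of 0.58 and 0.40. Esrra, the nuclear receptor they act with, read 9.93 in ΔIE and 9.59 in F/F, but averaged over its probe sets differed by 0.15. Gabpa, a subunit of GABP, read 9.34 in ΔIE and 9.63 in F/F. Averaged over its probe sets, Ppargc1a differed by 0.27.

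**Figure D4:**
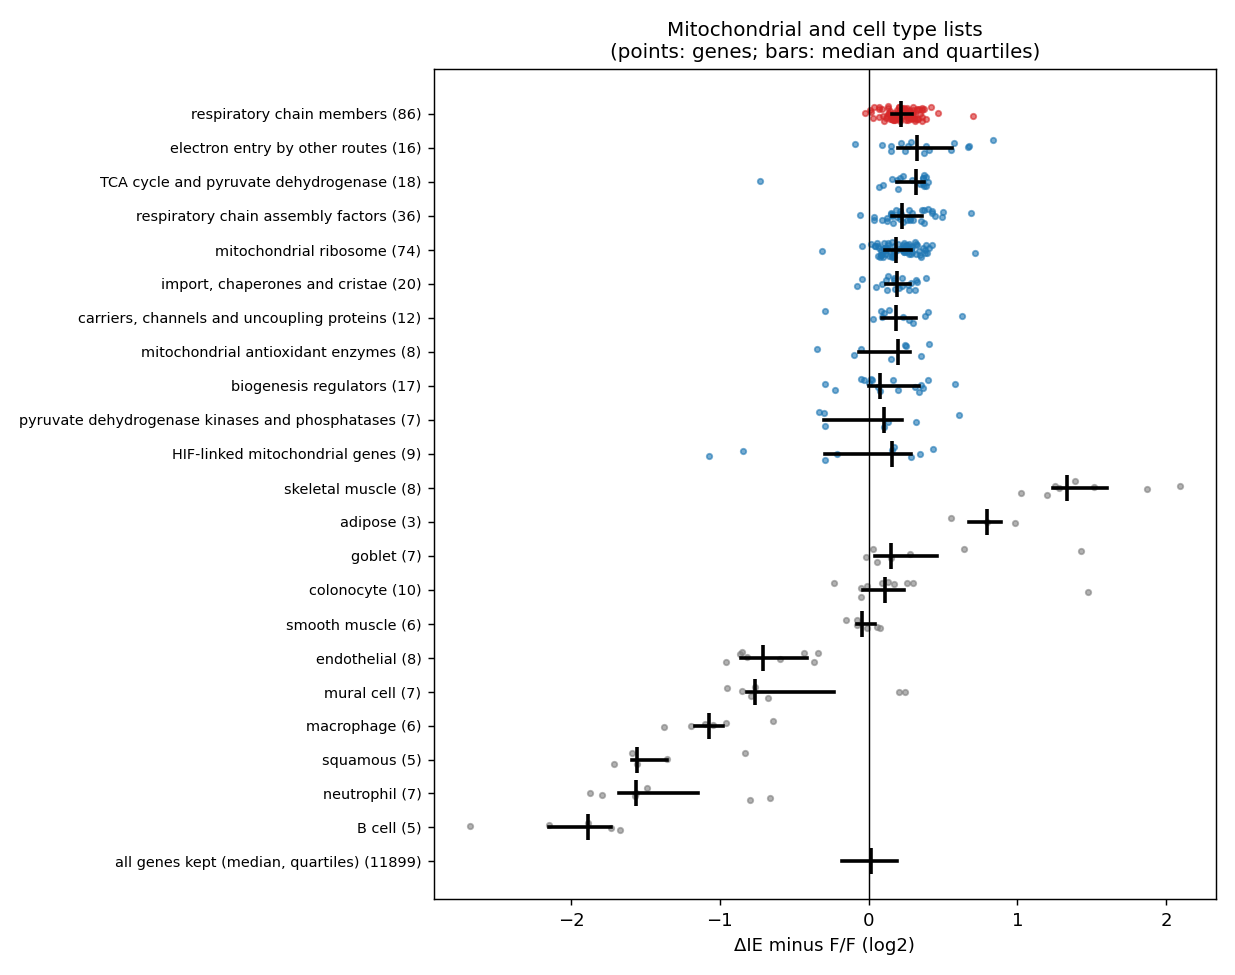
Difference (ΔIE minus F/F, log2) of the kept genes of the respiratory chain (red), other mitochondrial lists (blue) and cell type marker lists (grey), with the median and quartiles of each as black marks and the number of genes in parentheses. The medians of the mitochondrial lists lie between 0.08 and 0.33, while skeletal muscle and adipose markers lie above them and leukocyte, squamous, endothelial and mural markers below 0.

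The arrays also differed in markers of cell types. Epithelial markers had a median difference of 0.11 over 10 colonocyte genes (6 above 0) and of 0.15 over 7 goblet cell genes (6 above 0). The colonocyte genes ranged from -0.23 to 1.47, with Slc9a3 highest. The goblet cell genes ranged from -0.01 to 1.43, with Spdef highest. The 6 smooth muscle markers had a median of -0.04. All 7 neutrophil, 6 macrophage and 5 B cell markers kept were below 0, with medians of -1.56, -1.07 and -1.88. Their median levels were 8.21, 9.88 and 6.80 in ΔIE, against 10.08, 11.09 and 8.69 in F/F. The B cell marker Cr2 passed the filter on the F/F array alone, which fixed its sign. All 5 squamous epithelium markers kept were below 0 too, with a median of -1.55. The 3 adipose markers kept were above 0, with a median of 0.79, while Ucp1, the marker of brown fat, and Lep were below the filter on both arrays. RMA levels are relative within an array, and the part of these cell types in the respiratory chain differences was not tested.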

How the data were processed

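Expression was measured in colon mucosal scrapings on 2 Affymetrix arrays, 1 per genotype, assigned by the genotype label. The deposited table holds log2 values, and the authors' tools were affy and RMA, per the submitters' processing notes, which give no version. RMA as usually run includes quantile normalization, which sets the arrays' distributions equal, so a change in total RNA would not be seen. The table's column medians were 6.11 in Hif-2αΔIE and 6.12 in Hif-2αF/F. RMA compresses differences of dim and of very bright probe sets and gives no detection call. The number of arrays limits the precision.

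Gene symbols came from a platform annotation table, in which 34958 probe sets have a single symbol, 932 have several and 9211 have none. The 64 control probe sets were left out of gene comparisons. The file has no genome build; promoter sequences are RefSeq's on GRCm38.p6. Each gene took its probe set of highest mean, and the filter was 6.11 on the higher array. Differences of log2 values were counted at 1.5-fold, and lists were described by counts and medians beside those of all genes kept. The calculation was tested on simulated data.

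Members and lists were chosen with earlier results of these data known. Values are given for Ndufa4l2, Cox4i2, members of largest difference in each complex, core subunits of complex I, complex II, isoforms, members past 1.5-fold, the brightest gene of a complex, up to 4 genes of largest difference of each other list, and Epas1 and Hif1a; Cs, Etfa, Etfdh, Esrra and the mural and endothelial lists were added after values were seen. Alternatives were the mean over probe sets, leaving out _s_at and _x_at probe sets, no filter, filters stricter in level (75th percentile) or needing both arrays, centring on the medians, subtraction of a lowess curve of span 0.3, and thresholds at 0.32 (log2) and 2-fold. Python 3.11.15, numpy 2.4.6, pandas 2.3.3, statsmodels 0.14.6 and matplotlib 3.10.9 were used.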

Additional observations from a re-analysis of the deposited data

How the results depend on the processing

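Under 7 alternatives the median over the members stayed above 0, at 0.17 to 0.26, and the medians of complexes I, II, III, IV and V ranged over 0.19 to 0.29, 0.19 to 0.29, 0.24 to 0.34, 0.10 to 0.20 and 0.12 to 0.22. Ndufa4l2 ranged over -1.08 to -1.03 and Cox4i2 over -0.13 to -0.09. The members above 0 numbered from 82 of 86 with the lowess correction to 86 of 86 with median centring. Counts depended on the threshold. Members higher numbered 1 at 1.5-fold, 15 at a log2 threshold of 0.32 and 0 at 2-fold. Members lower numbered 1 (Ndufa4l2) at 1.5-fold, 0 with the filter at the 75th percentile, which leaves out Ndufa4l2 by its construction, and 2 without _s_at and _x_at probe sets, where Ndufa12 is left with its dimmer probe set at -0.68. With 1 array per genotype no array could be left out. No paired analysis was possible because each genotype has 1 array and no test was run. Differences of probe sets near the filter, such as Cox4i2 and Cox6a2, are the least certain.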

Other observations

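Mitochondrial antioxidant genes were mixed, with 5 of 8 above 0 and a median of 0.20. Prdx3, the mitochondrial peroxiredoxin, read 11.16 in ΔIE and 10.75 in F/F, and Txn2, which reduces it, read 10.01 in ΔIE and 9.66 in F/F. Sod2, the mitochondrial superoxide dismutase, differed by -0.05. Gsr (glutathione reductase) read 10.50 in ΔIE and 10.85 in F/F.

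The kinases and phosphatases that set the activity of pyruvate dehydrogenase went both ways, with 4 of 7 above 0. Pdk4, a kinase known to be raised by fasting and by fatty acids, read 8.91 in ΔIE and 8.30 in F/F, a 1.52-fold difference, and Pdk2 read 8.17 in ΔIE and 7.85 in F/F. The phosphatase genes Pdp1 and Pdp2, which switch the enzyme back on, differed by -0.33 and -0.30.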
